A study of Sus scrofa with 16 samples.

Results

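The genes described here are the heat shock proteins, their J-domain partners, the cytosolic chaperonin, the protein disulfide isomerases and lectin chaperones of the endoplasmic reticulum (ER), and the transcription factors that control these genes. They were chosen by gene symbol, from the families HSPA, HSPB, HSPD, HSPE, HSPH, HSP90, DNAJ, CCT and PDIA together with TCP1, HSF1, BAG3, CRYAB, CALR, CANX, XBP1, ATF4 and DDIT3. Of the 6765 genes with at least 1 probe set of a single symbol, 61 belonged to this group. They were covered by 104 of the 23999 probe sets, and the brightest probe set of a gene, by its mean over all arrays, stood for it. ATF6, ERN1, HSPA1A, HSPA1B, CCT3 and CCT5 were not analysed here.

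The study measured RNA of the left ventricle in 8 pigs with a myocardial infarction (MI) and in 8 pigs with a sham operation (Sham), 3 weeks after surgery. The animals were Yorkshire x Landrace swine aged 2 to 3 months, and 4 females and 4 neutered males were labelled in each group. Each animal gave 1 Affymetrix porcine array, and the values are log2 signals. Neither the region of the ventricle nor its distance from the infarct is given in the labels.

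Heat shock proteins of the HSP70 class bind unfolded stretches of protein and release them through cycles of ATP hydrolysis, which J-domain proteins start and nucleotide exchange factors end. HSP90 and the ring-shaped chaperonin CCT finish the folding of particular clients, among them kinases for HSP90 and actin and tubulin for CCT, while small heat shock proteins hold denatured protein without using ATP and are abundant in heart muscle. Mitochondria and the ER have their own chaperones, and an excess of unfolded protein in the cytosol or the ER is answered through HSF1 or through the unfolded protein response with its factors XBP1, ATF4 and DDIT3.

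The arrays fell into 2 sets by their spike-in controls. The signal of the polyadenylated spike-in RNAs minus that of the hybridisation controls was -4.57 ± 0.45 log2 units in set B (SD, n = 5) and -1.88 ± 0.32 log2 units in set A (SD, n = 11). Set B held 2 MI arrays (MI 7 and MI 8) and 3 Sham arrays (Sham 6, Sham 7 and Sham 8), and set A the other 6 MI and 5 Sham arrays. The actin control, read near the 3′ end minus near the 5′ end, was 1.42 ± 0.14 in set B and 2.64 ± 0.29 in set A. MI 7, labelled female, carried the signal of the males at 2 probe sets of chromosome Y genes. These 2 were picked because their signal was lower in the labelled females than in the labelled males. The 10 measured cardiomyocyte markers averaged 13.7 to 13.8 log2 units per animal in MI and 13.8 to 13.9 in Sham, so the label of heart muscle matched its markers. None of these markers passed in MI against Sham.

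Most chaperone genes, like most genes measured, had nearly the same signal in both groups. In MI against Sham, 2 of the 61 genes were higher (HSPB11 and HSPA6) and 1 was lower (DNAJC24) at an adjusted p under 0.05. Among the 58 genes above background, 1 was higher (HSPB11) and 1 lower (DNAJC24). The 3 are 4.92% of the genes, against 7.63% of all genes by the same rule (4.12% higher and 3.5% lower) and 10.5% of all probe sets. Within set A, 5 of the 61 passed (8.20%, against 7.63% of all genes), and with the array set as a block also 5 (8.20%, against 9.59%). An unadjusted p under 0.05 was reached by 11 of the 61 (18.0%), against 18.1% of all genes. The difference was positive for 36 and negative for 25, with a median of 0.014 log2 units, against 0.0048 over all genes. The median size of the difference, without its sign, was 0.10 log2 units for these genes and for all genes. For 51 of the 61 (83.6%) the 95% confidence interval of the difference lay within a 1.5-fold change either way, against 87.4% of all genes. In bulk tissue a lower share of cells of a type and less RNA per cell cannot be told apart.

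**Figure D1:**
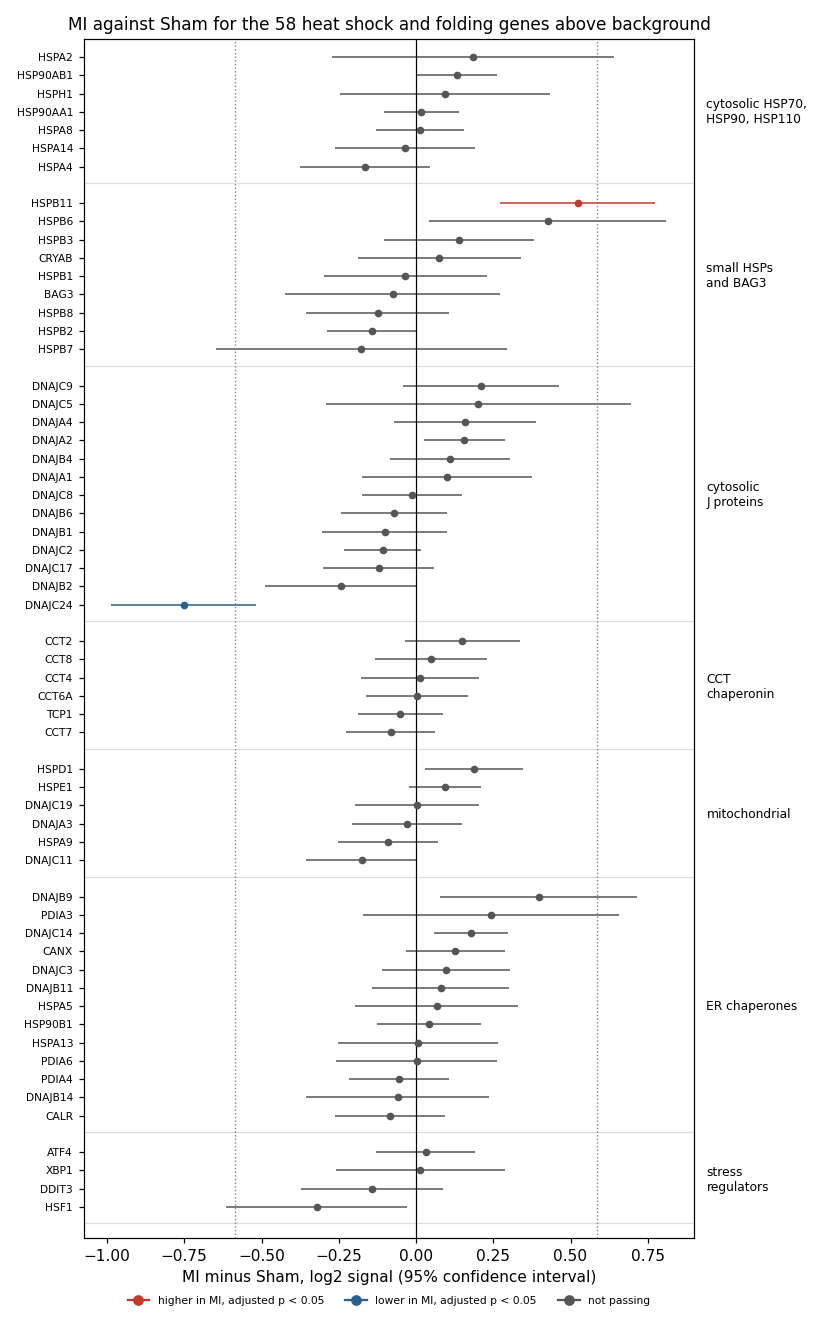
Difference MI minus Sham (log2 units, horizontal axis) with its 95% confidence interval for each of the 58 genes above background, grouped by role down the page. The dotted lines mark a 1.5-fold change either way; DNAJC24 at -0.75 lies farthest to the left and HSPB11 at 0.52 farthest to the right.

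DNAJC24 codes for a J protein that takes part in the synthesis of diphthamide, the modified histidine of elongation factor 2. Its signal was 4.95, 5.48 and 5.78 (lowest, median and highest of 8) in MI and 5.93, 6.16 and 6.35 in Sham. Every MI animal lay under every Sham animal, and DNAJC24 was the only one of the 61 genes whose groups did not overlap, against 1.83% of all genes. The mean was 5.39 ± 0.29 in MI and 6.14 ± 0.18 in Sham (SD, n = 8 each), a difference of -0.75 log2 units (SE 0.11), or 1.68-fold lower in MI, with a limma adjusted p of 0.000533. The difference was -0.57 within set A (adjusted p = 0.0143) and -0.76 with the array set as a block (adjusted p = 0.000496). The background limit, the highest single value of 23 control probe sets without a target in the tissue, was 4.99 log2 units, and 1 array (MI 8) lay under it for DNAJC24.

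HSPB11 carries the name of a small heat shock protein and codes for IFT25, a subunit of the intraflagellar transport machinery of cilia. Its signal was 7.24, 7.56 and 8.00 (lowest, median and highest of 8) in MI and 6.44, 7.09 and 7.34 in Sham. All 8 MI animals lay above the Sham mean, but the ranges of the groups overlapped. The mean was 7.57 ± 0.23 in MI and 7.05 ± 0.30 in Sham (SD, n = 8 each), a difference of 0.52 log2 units (SE 0.12), or 1.44-fold higher in MI, with an adjusted p of 0.00957. Within set A the difference was 0.71 (adjusted p = 0.00798).

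HSPA6 codes for an HSP70 that in humans is made almost only under stress. Its signal was 4.30, 4.62 and 4.96 (lowest, median and highest of 8) in MI and 3.82, 4.12 and 4.31 in Sham. All MI animals lay above the Sham mean, and the groups met only at their edges. All 16 arrays lay under the background limit of 4.99, so no size of difference is given for HSPA6, and its call (adjusted p = 0.00162, and 0.0156 within set A) is one between signals not above background. In all, 58 of the 61 genes exceeded that limit in the mean of at least 1 group.

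**Figure D2:**
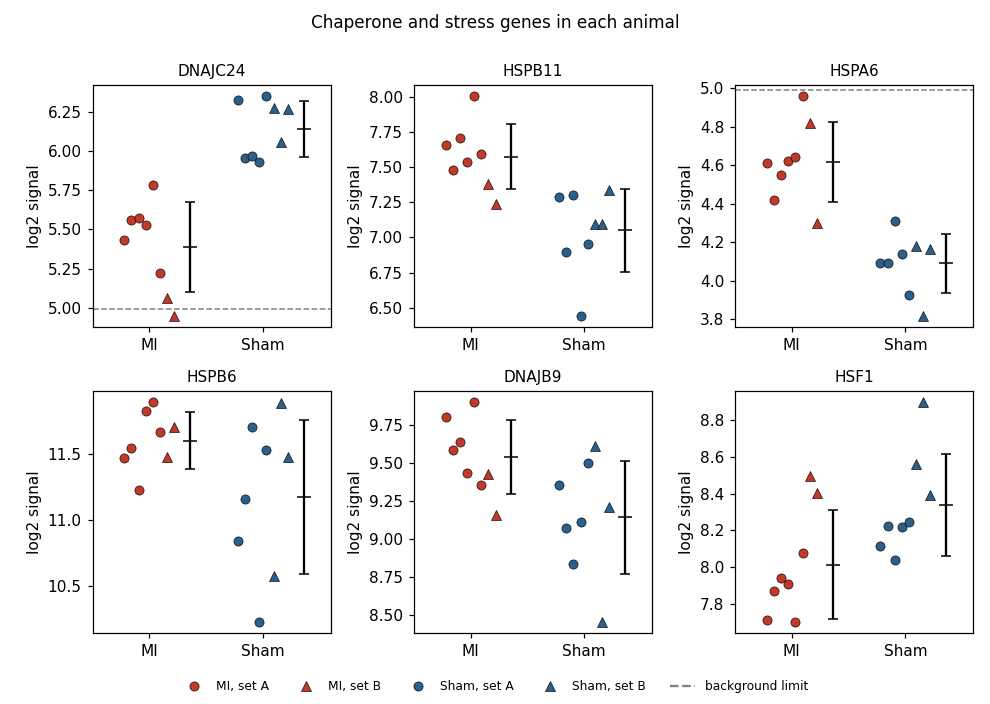
Log2 signal of each animal (vertical axis) for DNAJC24, HSPB11, HSPA6, HSPB6, DNAJB9 and HSF1, MI left and Sham right, with the mean and SD of each group as bars. Circles are arrays of set A, triangles arrays of set B, and the dashed line is the background limit of 4.99; the MI and Sham animals are apart for DNAJC24 and overlap for the others.

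Among the 9 cytosolic HSP70, HSP90 and HSP110 genes, HSPA6 was the only one that passed, and the median difference of the 9 was 0.09 log2 units. The constitutive chaperone HSPA8 was 12.38 ± 0.11 in MI and 12.37 ± 0.12 in Sham (SD, n = 8 each), a difference of 0.01 with a 95% interval of -0.13 to 0.16. HSP90AA1, the HSP90 isoform that stress induces, differed by 0.02 log2 units (interval -0.10 to 0.14). Its constitutive relative HSP90AB1 was 12.15 ± 0.12 in MI and 12.02 ± 0.08 in Sham, and 8 of 8 MI animals exceeded the Sham mean, but the adjusted p was 0.204. HSPH1, the HSP110 that acts as nucleotide exchange factor of HSP70, differed by 0.09 and its relative HSPA4 by -0.16, with adjusted p of 0.787 and 0.351. HSPA14, which acts at the ribosome, differed by -0.04, and HSPA12A lay below background in both groups. HSPA2, an HSP70 best known from male germ cells, varied most of the 61 genes, with an SD of 0.59 over the 16 animals. It ranged between 6.67 and 7.70 in MI and between 5.51 and 8.02 in Sham.

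The list of small heat shock proteins and their cochaperone BAG3 held 9 genes, with a median difference of -0.03 log2 units. Only HSPB11 passed, which is in the list by its name and codes for the ciliary subunit IFT25. None of the other genes in the list passed by its brightest probe set. CRYAB, the αB-crystallin that protects desmin and other filaments of heart muscle, was 13.13 ± 0.25 in MI and 13.06 ± 0.26 in Sham (SD, n = 8 each), a difference of 0.08 (interval -0.19 to 0.34; adjusted p = 0.78). HSPB1 differed by -0.03 (interval -0.30 to 0.23) and BAG3, which couples HSP70 and HSPB8 to autophagy at the Z-disc, by -0.08 (interval -0.42 to 0.27). HSPB6, a phosphoprotein of muscle also known as HSP20, was 11.23, 11.61 and 11.90 (lowest, median and highest) in MI and 10.23, 11.32 and 11.89 in Sham. The Sham animals spread more widely and covered most of the MI range, and the difference of 0.43 (SE 0.18) had an adjusted p of 0.159. A second, dimmer probe set of HSPB6 averaged 10.22 ± 0.22 in MI and 9.55 ± 0.45 in Sham and passed, with a difference of 0.66 (SE 0.16; adjusted p = 0.012). HSPB2, the partner of HSPB3 in muscle, differed by -0.14, HSPB3 by 0.14, HSPB8 by -0.12 and HSPB7 by -0.18, with adjusted p between 0.224 and 0.698.

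Of the 14 J proteins grouped here as cytosolic, not all strictly so, DNAJC24 was the only one that passed. The median difference was -0.04 log2 units. DNAJA2, a partner of HSPA8 in refolding, was 8.86 ± 0.15 in MI and 8.70 ± 0.09 in Sham (SD, n = 8 each), with an adjusted p of 0.129. DNAJB1, the J protein induced together with HSP70 under heat shock, was 7.71 ± 0.25 in MI and 7.81 ± 0.08 in Sham, a difference of -0.10 (adjusted p = 0.584). DNAJB2 differed by -0.24 (adjusted p = 0.218), and DNAJC2, a ribosome-bound J protein, by -0.11, with 8 of 8 MI animals under the Sham mean and an adjusted p of 0.294. The class members DNAJA1, DNAJA4 and DNAJB4 differed by 0.10, 0.16 and 0.11, and DNAJC8, a J protein found with splicing factors, by -0.01. DNAJC6, the auxilin that uncoats clathrin vesicles, lay below background in both groups.

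The chaperonin CCT showed no subunit that passed and none with an unadjusted p under 0.05 among the 6 measured. The differences ran from -0.08 (CCT7) to 0.15 (CCT2), with TCP1, the first subunit of the ring, at -0.05, CCT8 at 0.05 and CCT4 at 0.01. All 6 intervals lay within a 1.5-fold change either way. CCT2 had the widest gap, with 11.39 ± 0.19 in MI and 11.24 ± 0.18 in Sham (SD, n = 8 each; adjusted p = 0.327).

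None of the 6 mitochondrial genes passed, and their intervals also lay within a 1.5-fold change either way. HSPD1, the HSP60 chaperonin of the matrix, ranged between 11.23 and 11.68 with a median of 11.51 in MI, and between 11.04 and 11.46 with a median of 11.34 in Sham. The groups overlapped, and the difference of 0.19 (SE 0.07) had an adjusted p of 0.13. Its cofactor HSPE1, the HSP10 lid of that chaperonin, was 12.28 ± 0.05 in MI and 12.19 ± 0.11 in Sham (SD, n = 8 each; adjusted p = 0.331), and all 8 MI animals exceeded the Sham mean. HSPD1 and HSPE1 are neighbours in the pig genome annotation, as are CRYAB and HSPB2. HSPA9, the mitochondrial HSP70 that pulls proteins through the import channel, differed by -0.09, and DNAJC11, a J protein of the membrane contact site complex, by -0.18 (adjusted p = 0.223). DNAJC19, a subunit of the import motor that is mutated in a form of dilated cardiomyopathy, differed by 0.0036 (interval -0.20 to 0.20).

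The ER chaperones were 13 genes, of which 10 had a positive and 3 a negative difference, with a median of 0.07 log2 units and none passing. HSPA5 (BiP), the ER HSP70 and usual mark of ER stress, was 11.04 ± 0.18 in MI and 10.97 ± 0.31 in Sham (SD, n = 8 each), a difference of 0.07 (interval -0.20 to 0.33). HSP90B1, the ER HSP90, differed by 0.04 (interval -0.13 to 0.21). DNAJB9, a J protein that draws BiP to the stress sensor IRE1, was 9.16, 9.51 and 9.90 (lowest, median and highest) in MI and 8.45, 9.16 and 9.61 in Sham. The groups overlapped, and the difference of 0.40 (SE 0.15) had an adjusted p of 0.112. DNAJC14, a J protein of the ER membrane, showed little spread, with 7.83 ± 0.09 in MI and 7.65 ± 0.08 in Sham, a difference of 0.18 (SE 0.06) and an adjusted p of 0.0565. With the array set as a block it passed (adjusted p = 0.0463), and its second probe set had a difference of -0.19 (adjusted p = 0.088). PDIA3, the disulfide isomerase that works with the lectin chaperones, was 10.47 ± 0.46 in MI and 10.23 ± 0.42 in Sham (adjusted p = 0.508). The lectin chaperones CALR and CANX differed by -0.08 and 0.13, and PDIA4 and DNAJB11 by -0.06 and 0.08, with adjusted p of 0.342 or more.

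None of the 4 transcription factors passed. HSF1, the regulator of the heat shock response, was 7.70, 7.93 and 8.50 (lowest, median and highest) in MI and 8.04, 8.23 and 8.90 in Sham. The mean was 8.01 ± 0.30 in MI and 8.34 ± 0.28 in Sham (SD, n = 8 each), a difference of -0.32 (SE 0.14) with an adjusted p of 0.163. The HSF1 signal also differed between the array sets, and with the set as a block the difference was -0.25 with an adjusted p of 0.044. Within set A it was 7.70 to 8.08 in MI and 8.04 to 8.24 in Sham, and the difference of -0.33 had an adjusted p of 0.0343. A second probe set of HSF1 had a difference of -0.09 (adjusted p = 0.653). ATF4, the factor translated when eIF2α is phosphorylated, differed by 0.03 (interval -0.13 to 0.19) and XBP1, the factor spliced by IRE1, by 0.01 (interval -0.26 to 0.29). DDIT3 (CHOP), their proapoptotic target, was 7.75 ± 0.19 in MI and 7.89 ± 0.25 in Sham (adjusted p = 0.485).

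For some of these genes 1 probe set passed and another did not. A total of 26 of the 61 had further, dimmer probe sets, 43 in all. Of these 4 passed, 3 higher and 1 lower in MI, a share no larger than the 11% of such probe sets over all genes. The probe sets that passed belonged to HSPB6, given above, and to DNAJC3, HSPA13 and DNAJA4. For DNAJC3, the inhibitor of eIF2α kinases known as p58IPK, the dimmer probe set was 5.48 ± 0.16 in MI and 5.09 ± 0.07 in Sham (SD, n = 8 each; difference 0.39, adjusted p = 0.00142), while the brighter had a difference of 0.10 (adjusted p = 0.612). Within set A the brighter DNAJC3 probe set passed too, with a difference of 0.31 (adjusted p = 0.0238). For HSPA13, an HSP70-like protein of microsomes, the dimmer was 6.14 ± 0.26 in MI and 5.69 ± 0.17 in Sham (difference 0.45, adjusted p = 0.0125), while the brighter had a difference of 0.0064. For DNAJA4 the dimmer was 5.62 ± 0.08 in MI and 5.95 ± 0.13 in Sham (difference -0.33, adjusted p = 0.00441), every MI animal under every Sham animal, while the brighter had a difference of 0.16 in the other direction (adjusted p = 0.426). By the brightest probe set, the groups did not overlap for 1.83% of all genes. Which transcripts the probe sets of a gene measure was not tested.

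Other genes of protein folding were compared in the same way. Of 62 measured genes in 4 lists (cochaperones of HSP70 and HSP90, prefoldin and tubulin folding, ER folding with the unfolded protein response, and mitochondrial proteostasis), 2 rose and 1 fell in MI, which is 4.84%, against 7.63% of all genes. An unadjusted p under 0.05 was reached by 5 (8.06%, against 18.1% of all genes). The median difference of the 62 was 0.03 log2 units, against 0.0048 over all genes. CLPB, the mitochondrial disaggregase, was 6.91, 7.07 and 7.31 (lowest, median and highest) in MI and 7.33, 7.44 and 7.60 in Sham. Its groups did not overlap, which held for 1.83% of all genes, and the difference was -0.36 (SE 0.07; adjusted p = 0.0041). UNC45B, the chaperone that folds the myosin head in muscle, was 8.84, 9.12 and 9.63 in MI and 8.47, 8.75 and 9.11 in Sham, a difference of 0.40 (SE 0.11; adjusted p = 0.0336). The UNC45B call was lost without any 1 of MI 6, MI 7, MI 8, Sham 1, Sham 3, Sham 4, Sham 7 and Sham 8 (adjusted p up to 0.067), and within set A the difference was 0.25 (adjusted p = 0.201). PPP1R15B, a subunit of the phosphatase that reverses the phosphorylation of eIF2α, was 7.29 ± 0.08 in MI and 6.97 ± 0.17 in Sham, a difference of 0.32 (SE 0.08; adjusted p = 0.012). As a mean over its 3 probe sets the PPP1R15B difference was -0.11 (adjusted p = 0.258), and over the 2 of CLPB it was -0.19 (adjusted p = 0.101). BAG1, a nucleotide exchange factor of HSP70, differed by 0.16 (adjusted p = 0.061), SEC63, a J protein of the ER translocon, by 0.24 (adjusted p = 0.234), and GRPEL1, the exchange factor of the mitochondrial HSP70, by 0.18 (adjusted p = 0.205). None of the 10 prefoldin and tubulin folding genes had an unadjusted p under 0.05, among them PDCL3, a modulator of CCT, at -0.09 and TBCD, a tubulin cofactor, at -0.21.

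Markers of other cells moved in part between the groups. Of 8 measured T and NK cell markers 4 were higher and 1 was lower in MI, and their mean per animal was 5.40 to 5.94 in MI and 5.45 to 5.99 in Sham, with 2 below background. Of 4 erythroid markers 2 were higher, with a mean of 6.41 to 7.82 in MI and 6.26 to 6.78 in Sham. Of 5 adipocyte markers 2 were higher and 1 was lower (6.47 to 6.85 in MI, 6.18 to 6.63 in Sham), and of 6 macrophage markers 1 was higher (7.37 to 8.00 in MI, 7.33 to 7.83 in Sham). No marker of fibroblasts, smooth muscle or endothelium passed. The part of these cells in the differences of DNAJC24, HSPB11 and HSPA6 was not tested.

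Within each sex there were 4 animals per group. In females HSPA6 (below background, adjusted p = 0.0473) and DNAJC24 (-0.92, adjusted p = 0.00607) passed, against 2.1% of all genes. In males HSPA6 (adjusted p = 0.0285) and HSPB11 (0.77, adjusted p = 0.0201) passed, against 2.42% of all genes. In the other sex the difference had the same sign but did not pass. It was -0.58 for DNAJC24 in males (adjusted p = 0.0539) and 0.28 for HSPB11 in females (adjusted p = 0.450). Each call within a sex, except DNAJC24 in females, was lost when some single animal was left out. The adjusted p rose to 0.128 for HSPA6 in females, 0.0772 for HSPA6 in males and 0.0664 for HSPB11 in males. HSPA6 in females kept its call only without MI 6, MI 8 or Sham 3, HSPA6 in males lost it without any 1 of MI 4, MI 5, MI 6, Sham 2, Sham 4, Sham 6 and Sham 8, and HSPB11 in males without MI 3 or MI 5. Within set A, HSPB11 in males still passed (adjusted p = 0.0282), while HSPA6 in males (0.0705), DNAJC24 in females (0.0708) and HSPA6 in females (0.199) did not. With MI 7 counted as male, DNAJC24 passed in both sexes and HSPA6 no longer in females (adjusted p = 0.122). The difference between the sexes passed for none of the 61 genes, and for 0% of all probe sets by limma. For DNAJC24 it was -0.34 (adjusted p = 0.796), and for HSPB11 its unadjusted p was 0.0545. An unadjusted p under 0.05 for that difference was reached by 5 genes (8.20%, against 6.24% of all genes). HSPA2 had the lowest of these p-values (0.00345; adjusted p = 0.794), with 6.71 ± 0.07 in MI and 7.27 ± 0.68 in Sham among females, and 7.19 ± 0.41 in MI and 6.27 ± 0.52 in Sham among males (SD, n = 4 each). Females against males over both groups also gave no gene that passed, against 0.0583% of all probe sets. DNAJA4 (-0.27) and HSPB8 (-0.26), both lower in females, had unadjusted p of 0.0231 and 0.0287, which makes 2 of the 61 under 0.05 (3.28%, against 3.25% of all genes). The male MI arrays were all of set A and the male Sham arrays were 2 of set A and 2 of set B. With the array set as a block HSPB11 in males passed (adjusted p = 0.0276) and HSPA6 in males did not (0.0617).

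Several of these genes differed between the array sets. For 11 of the 61 (18.0%, against 9.21% of all genes) the arrays of set B lay wholly above or wholly below those of set A. Higher in set B were HSPB7 (12.02 to 12.58 in set B, 11.10 to 11.73 in set A), BAG3 (10.09 to 10.60 in set B, 9.48 to 9.99 in set A), HSF1 (8.39 to 8.90 in set B, 7.70 to 8.24 in set A) and HSPB1 (12.16 to 12.38 in set B, 11.49 to 12.10 in set A). Lower in set B were PDIA3 (9.63 to 9.81 in set B, 10.35 to 10.93 in set A), PDIA6, CCT2, CCT4, CCT8, HSPD1 and CANX. The mean difference, set B minus set A, was 0.91 for HSPB7 and -0.87 for PDIA3. With the set as a block BAG3 differed between MI and Sham by 0.0081 and HSPB1 by 0.02, and DNAJC24, HSPB11 and HSPA6 still passed. The SD over the 16 animals ran from 0.0963 to 0.59 log2 units among the 61 genes, with a median of 0.20. MI 5 was the highest animal for 11 genes (18.0%, against 7.88% of all genes), and MI 7 the lowest for 11 (18.0%, against 9.15%).

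**Figure D3:**
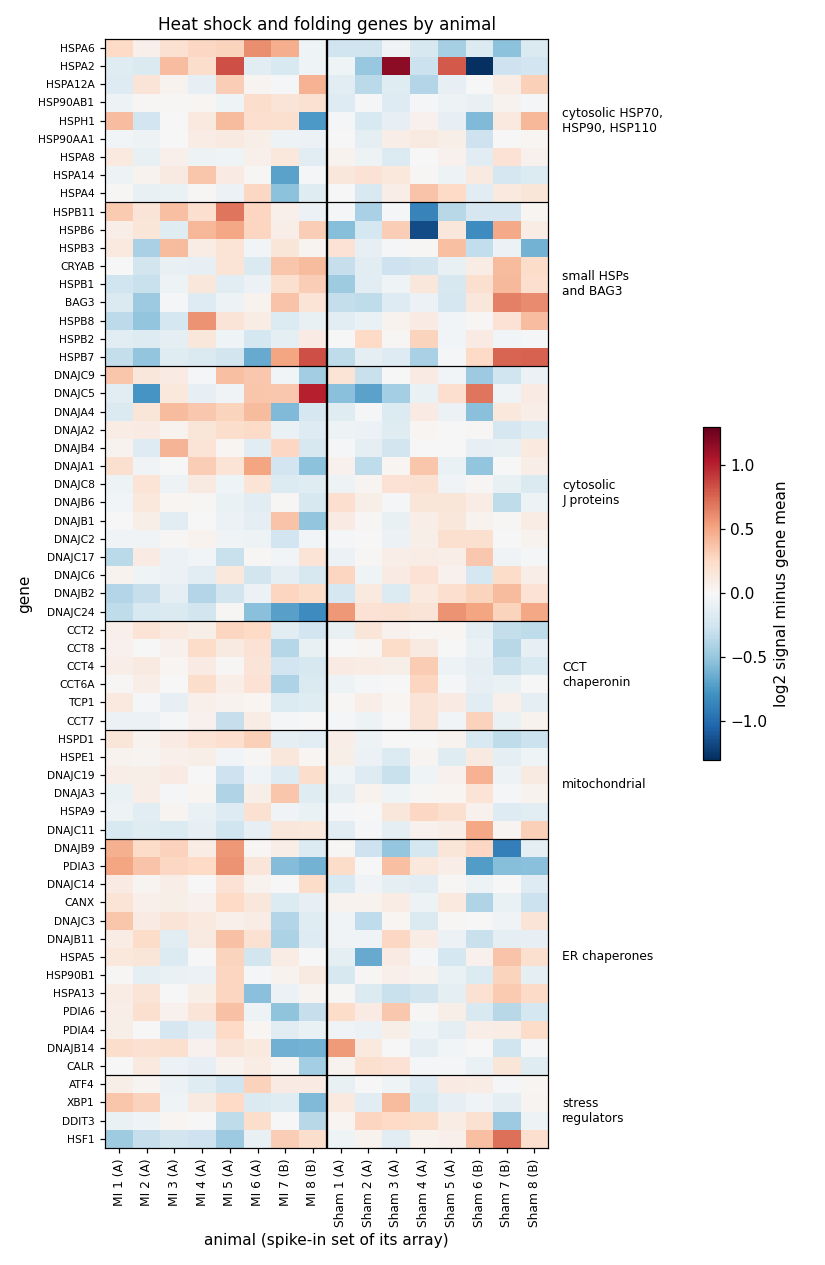
Log2 signal of each of the 61 genes (rows, grouped by role) minus the gene's mean over the 16 animals, with the animals in columns, MI left and Sham right. Red is above and blue below the gene's mean; HSPB7, BAG3, HSF1 and HSPB1 are above their mean in MI 7, MI 8 and Sham 6 to Sham 8 (set B), and PDIA3 and CANX below it.

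Gene pairs whose products work together were compared over the 16 animals. Of the 10 pairs, 4 had a Pearson correlation with a permutation p that passed after adjustment over the pairs. HSPB1 and BAG3 correlated most (r = 0.809, adjusted p = 0.0006; Spearman rho = 0.874, adjusted p = 0.0002), followed by HSPB1 and CRYAB (r = 0.715, adjusted p = 0.0115; rho = 0.668, adjusted p = 0.0207). HSPH1 and HSPA8 had r = 0.637 (adjusted p = 0.025; rho = 0.682, adjusted p = 0.0207), and HSP90AA1 and HSPH1 had r = 0.595 (adjusted p = 0.0394; rho = 0.532, adjusted p = 0.0895). Without the 2 animals farthest from the median of the first gene these r were 0.748, 0.588, 0.464 and 0.384 in the same order. Within the 11 arrays of set A they were 0.555, 0.0694, 0.45 and 0.432, and none passed (adjusted p of 0.25 or more). Without MI 8 neither HSPH1 and HSPA8 nor HSP90AA1 and HSPH1 passed (permutation test, adjusted p = 0.0539 each). The call of HSP90AA1 and HSPH1 was also lost without some other single animals, MI 5 among them (adjusted p = 0.0908). Set B has 5 arrays, too few for a value of its own.

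The other 6 pairs did not pass. HSPH1 and DNAJB1 had r = 0.434 over all animals and -0.375 within set A. HSP90B1 and PDIA4 had r = 0.321 over all animals (rho = 0.129) and 0.747 within set A (unadjusted p = 0.0131, adjusted p = 0.083). HSPA5 and DNAJB11 had r = 0.116 (rho = 0.129) and 0.689 within set A (unadjusted p = 0.0166, adjusted p = 0.083). HSPA5 and HSP90B1 had r = 0.385 (rho = 0.318), CALR and CANX 0.373 (rho = 0.353), and HSPD1 with its cofactor HSPE1 0.171 (rho = 0.185).

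**Figure D4:**
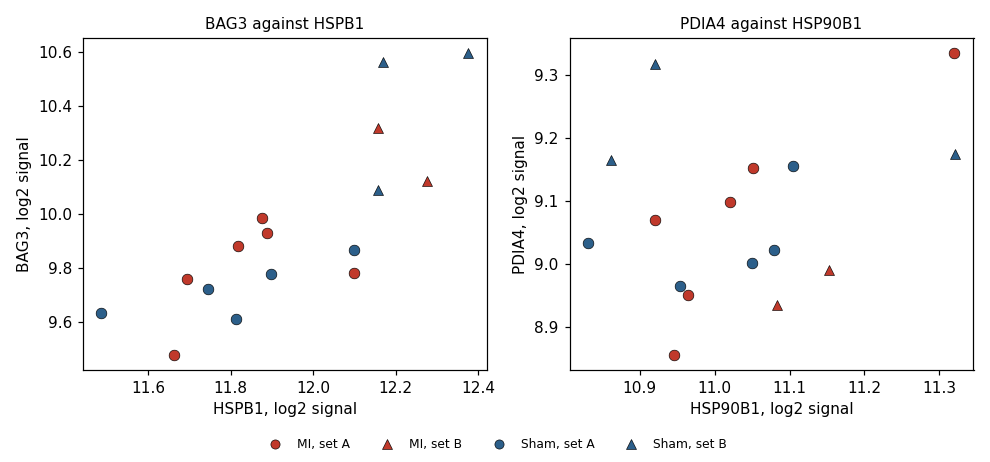
Log2 signal of BAG3 against HSPB1 (left) and of PDIA4 against HSP90B1 (right), 1 point per animal, with MI and Sham in different colours, circles for set A and triangles for set B. For HSPB1 and BAG3 the 5 arrays of set B lie at the upper right of all others (r = 0.809 over 16 animals and 0.555 within set A), and for HSP90B1 and PDIA4 r is 0.321 over all animals and 0.747 within set A.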

How the data were processed

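RNA of 16 left ventricles was measured on Affymetrix porcine arrays. The authors deposited log2 signals (from the values, 2.87 to 14.9), with nearly equal medians between arrays. The sources used here do not give their software or normalization, and the values were used as deposited. Every array had the same lowest value (2.87), and all arrays but Sham 7 the same highest value (14.857). On values so alike between arrays, quantile normalization could change little (2547 probe sets passed, against 2527), so that alternative adds little as a check. The 124 control probe sets were left out, and genes were named by the platform annotation: 10069 probe sets had 1 symbol, 198 several and 13732 none. No genome build is named, so no coordinates are given, and no sequence was at hand. Neighbouring genes were taken from the Sscrofa11.1 RefSeq annotation, in which 60 of 61 identifiers were found.

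Linear models were fitted by limma 3.58.1 (R 4.3.3) with a mean for every combination of group and sex (12 residual degrees of freedom, prior 3.28). Tests were two-sided, and p-values were adjusted by Benjamini-Hochberg over 23999 probe sets. Correlations used 100000 permutations. The fit was tested on simulated data. Each animal gave 1 array. Array number limits the precision.

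The genes, lists and comparisons were chosen with earlier results of these data known. Named were genes passing in any comparison, in each role group the 4 with the lowest p and the 3 with the highest mean, the 4 with the lowest interaction p, the genes of the pairs, and from each other list those passing and the 2 with the lowest p. Any further name was added after the values were seen. The alternatives were: no sex term, the animal number as a block, quantile normalization, the 16000 brightest probe sets, an offset of 32, an intensity trend, array weights, the spike-in set as a block or set A alone, MI 7 left out with that block or entered as male, stricter thresholds, the mean over the probe sets of a gene, and each animal left out.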

Additional observations from a re-analysis of the deposited data

Results flagged for a closer look

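In 92 groups of 8 animals, MI and Sham for each of the 46 named genes of the chaperone families, 4 held an animal far from the other 7, and chance alone gives about 1 in 20. CALR in MI was 7.18 in MI 8 and 7.52 to 7.75 in the other MI animals. CCT7 in MI was 10.82 in MI 5 and 11.04 to 11.21 in the others. DDIT3 in Sham was 7.34 in Sham 7 and 7.75 to 8.09 in the others. DNAJA4 in Sham was 9.67 in Sham 6 and 10.03 to 10.35 in the others. All but MI 5 are arrays of set B. None of the 4 genes passed in MI against Sham, and the cause of these values was not tested.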

How the results depend on the processing

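Over 31 alternatives DNAJC24 passed in all, with an adjusted p of 0.000344 to 0.0143. HSPB11 (0.00376 to 0.0227) and HSPA6 (0.000923 to 0.0175 over the 30 that held it) also passed, except that both miss a fold change of 1.5, and HSPA6 is not among the 16000 brightest probe sets. Whether the numbers of the labels pair the animals was not tested. For MI and Sham animals of the same number, deviations from the means of group and sex correlated between -0.216 and 0.504. With the number as a replicate block 2395 probe sets and 5 of the 61 genes passed, with DNAJB9 (adjusted p = 0.0473) and HSF1 (0.0358) added. The count of 3 genes was 5 with the array set as a block, in set A alone, with MI 7 entered as male beside that block (chosen after seeing the data) and as a mean over probe sets, 6 without MI 7 beside that block, 1 at a fold of 1.5, and 3 to 4 leaving out each animal. The count of 2527 probe sets was 654 among the 16000 brightest, 1123 at an adjusted p under 0.01, 207 at a fold of 1.5, and 2045 to 2537 leaving out each animal. The 3 other folding genes were 1 at an adjusted p under 0.01, 0 at a fold of 1.5, 1 as a mean over probe sets, and 2 to 4 leaving out each animal.

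In females the 2 genes were 0 with the replicate block and in set A, and 1 among the brightest probe sets, with the offset, without MI 7 or with it entered as male, each with and without the set block, and under both stricter thresholds, and 1 to 2 leaving out each animal. In males the 2 were 0 with the replicate block and at an adjusted p under 0.01, 1 among the brightest, with the set block, in set A, without MI 7 beside the block and at a fold of 1.5, and 0 to 3 leaving out each animal. The interaction and females against males gave 0 throughout.

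Of 54 named genes 18 changed sign under some alternative, none with an adjusted p under 0.05 in that alternative. Among them was 1 gene that passed in the main fit, PPP1R15B. With the set block the genes that changed sign were CCT4 (-0.029), HSPB1 (0.022), XBP1 (-0.019) and BAG3 (0.0081). In set A they were CCT4 (-0.035), HSP90AA1 (-0.015), HSPB3 (-0.062), HSPA2 (-0.044), BAG3 (0.031) and PDIA4 (0.054). Without MI 7 beside the block they were CCT4 (-0.026), HSPA8 (-0.0037), HSPB1 (0.026) and XBP1 (-0.018), and with MI 7 entered as male beside it CCT4 (-0.024), HSP90AA1 (-0.0062) and XBP1 (-0.0085). As a mean over probe sets they were HSP90AA1 (-0.11), HSPA8 (-0.023), DNAJA4 (-0.086), DNAJC14 (-0.0068), CANX (-0.017), HSPA9 (0.019) and PPP1R15B (-0.11). Leaving out each animal gave ATF4 -0.026 to 0.068, BAG3 -0.15 to 0.035, CCT4 -0.027 to 0.064, CCT8 -0.0062 to 0.10, HSP90AA1 -0.017 to 0.046, HSP90B1 -0.00055 to 0.087, HSPA5 -0.026 to 0.12, HSPA8 -0.021 to 0.0402, HSPB1 -0.10 to 0.049 and XBP1 -0.049 to 0.11.

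In set A the correlations that passed were lower: 0.45 for HSPH1 and HSPA8, 0.432 for HSP90AA1 and HSPH1, 0.0694 for HSPB1 and CRYAB, and 0.555 for HSPB1 and BAG3, while HSPH1 and DNAJB1 gave -0.375. Leaving out each animal gave 0.431 to 0.662 for HSP90AA1 and HSPH1, 0.568 to 0.73 for HSPH1 and HSPA8, -0.0236 to 0.523 for HSPH1 and DNAJB1, and -0.0439 to 0.201 for HSPA5 and DNAJB11. The cause of these changes was not tested. Signals under 4.99 are bounds only.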
